A study of Mus musculus with 8 samples.

Results

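Oxidative phosphorylation was examined through the nuclear genes that encode the subunits of its 5 protein complexes. Earlier results of these data were known when the genes were chosen. They were taken by name, as protein-coding genes of the count table whose symbols follow the naming patterns of the subunit families (Nduf a, b, c, s or v with a number, Sdha to Sdhd, Uqcr, Cox 4 to 8, and Atp5). This gave 83 of the 42748 genes in the table, with 34 members in complex I, 4 in complex II, 8 in complex III, 20 in complex IV and 17 in complex V. Ndufa4, Ndufa4l2 and Cox7a2l were counted with complex IV, to which their products belong or bind. Ndufb4 and Ndufab1, both complex I genes, were not among the members because the first carries 3 gene types in the table and the symbol of the second falls outside the patterns.

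The respiratory chain passes electrons from NADH through complex I, or from succinate through complex II, to coenzyme Q, and onward through complex III and cytochrome c to complex IV, where oxygen is reduced. Complexes I, III and IV pump protons across the inner mitochondrial membrane, and complex V, the ATP synthase, uses the resulting gradient to make ATP. Treg cells, the Foxp3-expressing CD4+ T cells that restrain immune responses, are known to rely on oxidative metabolism more than conventional effector T cells do.

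Female mice with the genotype Ripk1 fl/fl and Foxp3 Cre/wt gave the cells, which were sorted as CD4+ CD25+ from spleen pooled with lymph nodes. Bulk RNA was sequenced in 4 YFP+ libraries (genotype given as Ripk1 -/-) and 4 YFP− libraries (genotype given as Ripk1+/+), numbered 21, 46, 48 and 53 in each fraction. The Cre recombinase is expressed with YFP from the Foxp3 locus on the X chromosome, so that random X inactivation leaves each female with Treg cells that do or do not carry active Cre. Both fractions are therefore Ripk1 fl/fl in the germline, and the YFP+ cells carry 2 differences, the loss of Ripk1 and the YFP/Cre knock-in at Foxp3, whose effects cannot be told apart here. The age and treatment of the mice are not given in the labels, and whether libraries with different numbers come from separate mice is not stated, so p-values measure only the spread between these libraries. In bulk RNA, fewer cells of a type and less RNA per cell cannot be told apart either.

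The libraries held 29719251 to 55371610 counts in the YFP+ fraction and 43737313 to 70782679 counts in the YFP− fraction. YFP+ library 21 stood apart from the rest. It had the fewest counts and 9571 genes with at least 10 counts, against 13047 to 15550 such genes in the other YFP+ libraries and 15425 to 16558 in the YFP− libraries, and its log2 CPM (CPM being counts scaled to library size) correlated with those of any other library at no more than 0.652 across the tested genes. Results are therefore given with and without it. Ripk1 itself had 15.2, 28.7, 19.9 and 26.1 CPM in YFP+ libraries 21, 46, 48 and 53, against 20.5, 44.3, 29.5 and 23.2 CPM in the YFP− libraries of the same numbers (log2 fold change -0.38 ± 0.39 SE, edgeR quasi-likelihood adjusted p = 0.713). The fractions overlapped, and counts over a whole gene do not resolve a deleted exon. Of the Treg cell markers, Il2ra had 926 to 1280 CPM in YFP+ libraries and 1145 to 1308 CPM in YFP− libraries, whereas Foxp3 and Tnfrsf18 were listed at 0 in all 8 libraries. The study's text reports Foxp3 RNA as strongly lower in YFP+ cells from its bulk RNA-seq. The counting tool is not given, and these 0 values are reported only as listed. Ctla4 (log2 fold change -1.26, adjusted p = 0.0373) and Nrp1 (log2 fold change -1.48, adjusted p = 0.0328) were lower in YFP+ cells in the edgeR fit, where 0.836% of all tested genes were called lower. The other tested markers, Il2ra (-0.19, adjusted p = 0.620), Ikzf4 (-0.68, adjusted p = 0.226), Ikzf2 (-0.016, adjusted p = 0.993) and Tnfrsf4 (0.06, adjusted p = 0.947), were not called. The median of the 6 tested markers was -0.44, or -0.70 without YFP+ library 21. The 11 T cell markers had a median of 0.21, or 0.19 without that library, with 8 positive and 0 called.

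Of the 83 members, 75 had enough counts to be tested and 8 had not. Most members had somewhat higher levels in the YFP+ libraries, but none passed the edgeR test over all 8 libraries. A positive log2 fold change (YFP+ over YFP−) was found for 72 of the 75, or 96.0%, against 49.1% of all 15063 genes tested. The median of the members was 0.61 on the log2 scale, or 1.53-fold, with an interquartile range of 0.46 to 0.87, whereas the median of all tested genes was -0.02. With edgeR's quasi-likelihood test and Benjamini-Hochberg adjustment over all tested genes, 0 members were called higher and 0 lower at an adjusted p under 0.05, where 0.0332% of all genes were called higher and 0.836% lower. The lowest adjusted p of a member was 0.135, for Cox7a2l. At an unadjusted p under 0.05, 30 members (40.0%) were higher and 0 lower, where 7.21% of all genes were higher at that threshold. Counted in either direction, 1892 of all 15063 genes had an unadjusted p under 0.05 in this fit. With scaling by total counts alone, 5 of 75 members did, where 1672 of 15063 genes did. When YFP− library 21, 46 or 48 was left out, 6 of 76, 7 of 75 and 8 of 76 members did. The counts over all genes were then 1199 of 15382, 1130 of 15261 and 1245 of 15597. DESeq2 on the same libraries called 4 members higher (Ndufb5, Uqcrc2, Cox7a2l and Atp5c1), where 3.41% of all genes were called higher, and 0 lower, where 3.86% of all genes were.

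Without YFP+ library 21, 76 members could be tested, and 72 again had a positive log2 fold change. Their median was then 0.36, or 1.28-fold, against -0.01 over all genes. At that setting 5 of the 76 members (6.58%) passed the edgeR test as higher in YFP+ cells, where 2.68% of all genes did, and 0 as lower, where 3.97% of all genes did. The 5 were Uqcrc1, Uqcrc2 and Uqcrfs1 of complex III, Cox7a2l of complex IV and Atp5f1 of complex V. When both libraries numbered 21 were left out, 0 of 75 members were called, where 18 of all 15299 genes were called higher. At an unadjusted p under 0.05, 24 members (32.0%) were higher, where 8.50% of all genes were. The median of the members stayed at 0.36.

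The same members can be read library by library, as the difference of log2(CPM + 1) from the mean of the 4 YFP− libraries. The median member stood at 1.23, 0.23, 0.42 and 0.39 in YFP+ libraries 21, 46, 48 and 53, and at -0.01, -0.22, 0.02 and 0.20 in the YFP− libraries of the same numbers. The lowest YFP+ median and the highest YFP− median thus lay close together, and library 21 held the only median far from the rest. The spread of single members around that median was much wider in YFP+ library 21, with an SD of 1.35, than in the other YFP+ libraries (0.21 to 0.35) or the YFP− libraries (0.09 to 0.17). In that library 58 members lay above all 4 YFP− libraries and 9 below all of them. It was the highest of the 8 libraries for 52 members and the lowest for 9, and YFP− library 46 was the lowest for 59.

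**Figure D1:**
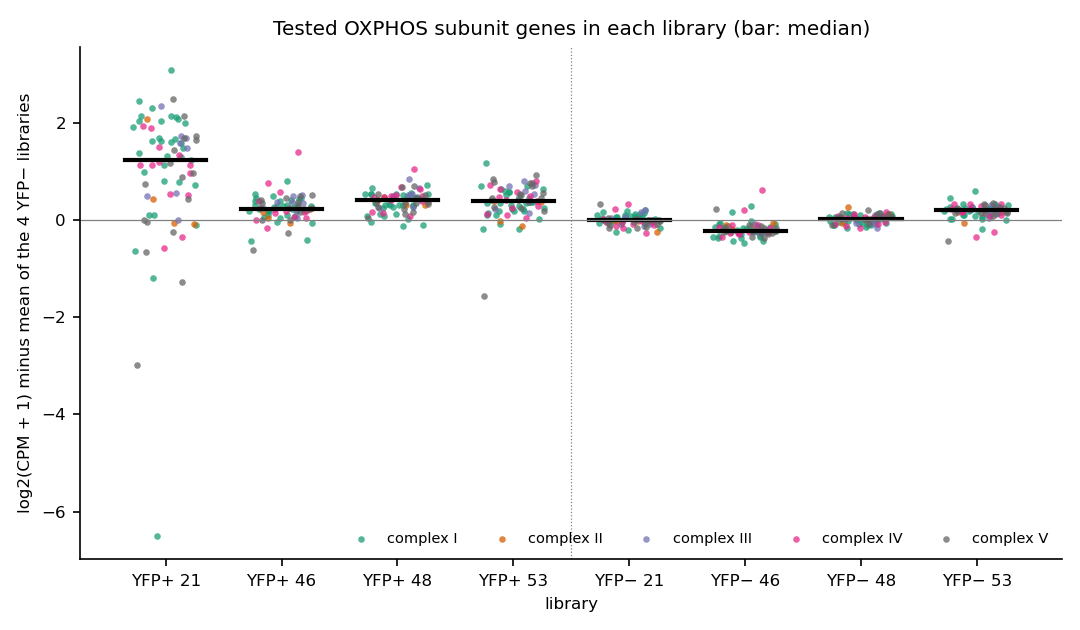
Each point is 1 of the 75 tested subunit genes, plotted as log2(CPM + 1) minus the mean of the 4 YFP− libraries (vertical axis) in each of the 8 libraries (horizontal axis, YFP+ left of the dotted line), coloured by complex, with a bar at the median. The medians of YFP+ libraries 46, 48 and 53 lie at 0.23 to 0.42, whereas the members of YFP+ library 21 are scattered from -6.50 to 3.08 around a median of 1.23.

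The fractions did not overlap for 27 of the 75 members (36.0%), all of them higher in YFP+ libraries, where 7.83% of all tested genes did not overlap with YFP+ higher. With YFP+ lower, 0 members did not overlap, where 10.6% of all genes did not. Without YFP+ library 21, 34 members (45.3%) were higher in all 3 remaining YFP+ libraries than in every YFP− library, where 13% of all genes were. Taken over all members, the summed CPM was 13088 ± 3561 in YFP+ libraries and 8659 ± 954 in YFP− libraries (SD, n = 4 each), a ratio of 1.51, or 1.31 with the 3 YFP+ libraries other than 21. The members took 1.30%, 1.06%, 1.08% and 1.17% of all counts in YFP+ libraries 21, 46, 48 and 53, against 0.933%, 0.855%, 0.980% and 1.06% in the YFP− libraries of the same numbers. YFP+ 46 and YFP− 53 thus held nearly the same share.

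On the TMM scale the summed level was higher in each YFP+ library than in every YFP− library for all 5 complexes. On library sizes taken as total counts alone, a scale chosen after seeing the data, the fractions overlapped in complexes I, II and V and did not overlap in complexes III and IV. In complex I the 4 YFP+ libraries summed to 2955 to 6824 CPM, against 2192 to 2865 CPM in YFP− libraries. In complex II the sums came closest to each other, at 884 to 1486 CPM in YFP+ libraries and 728 to 879 CPM in YFP− libraries. Complex III had 1424 to 2875 CPM in YFP+ libraries, against 963 to 1250 CPM in YFP− libraries, the highest ratio of group means of the 5 (1.71, and 1.42 without YFP+ library 21). Complex IV summed to 1714 to 3056 CPM in YFP+ libraries and 1168 to 1555 CPM in YFP− libraries. Complex V summed to 3502 to 4286 CPM in YFP+ libraries and 2487 to 3289 CPM in YFP− libraries, and was the only complex in which library 21 was not the highest YFP+ library. The ratio of means moved least for complex V when library 21 was left out, with 1.37 over all 8 libraries and 1.35 without it.

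**Figure D2:**
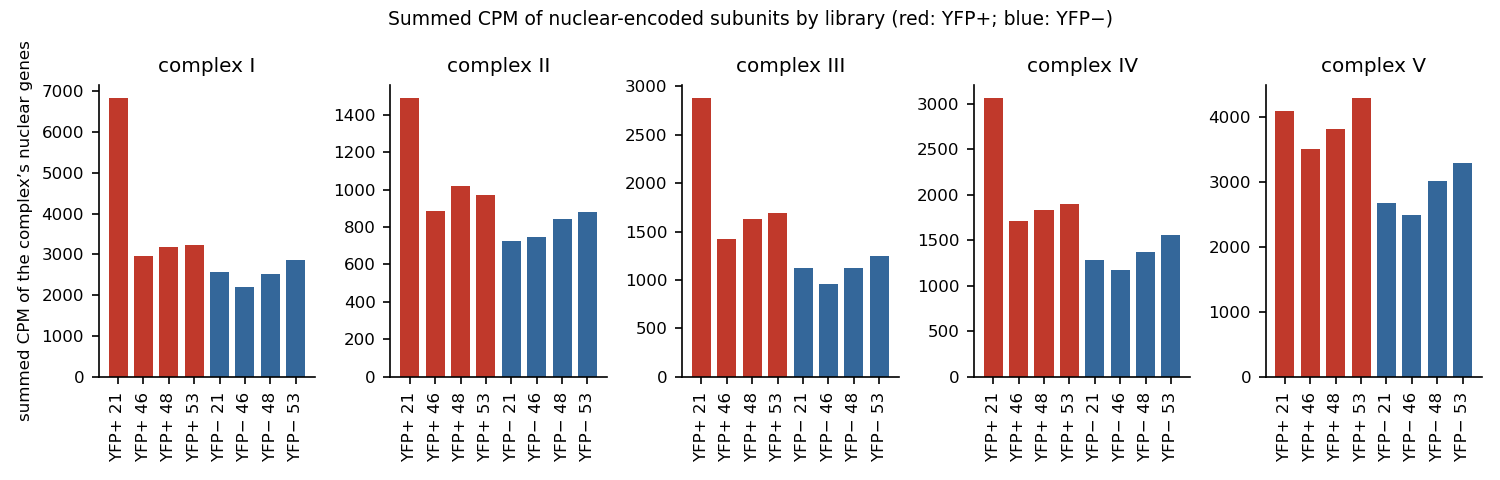
Bars give the summed CPM of the nuclear genes of each complex in each library (vertical axis from 0, CPM), with the 4 YFP+ libraries in red and the 4 YFP− libraries in blue. On this TMM scale every red bar is higher than every blue bar of its complex, by the smallest margin in complex II (884 against 879 CPM), and YFP+ library 21 exceeds the other YFP+ libraries most in complex I (6824 CPM).

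The members share features that the naming rule did not use, and other genes with these features also had positive log2 fold changes. Their principal transcripts in the GENCODE annotation had a median length of 838 bases, against 2998 bases over the 12328 tested genes with a coding transcript, and 70 of the 75 averaged at least 5 on the log2 CPM scale. All other tested genes at that level numbered 5666 and had a median log2 fold change of 0.14, or 0.05 without YFP+ library 21. Of these, the 301 with a principal transcript under 1000 bases had a median of 0.48, or 0.30 without YFP+ library 21, and 83.1% were positive. Their per-library medians were 0.87, 0.21, 0.29 and 0.36 in YFP+ libraries 21, 46, 48 and 53, against 0.0025, -0.19, 0.02 and 0.17 in the YFP− libraries of the same numbers, the same order of libraries within each fraction as for the members except that YFP+ 53 stood above YFP+ 48. Genes of other large cell machineries also had positive medians. The median log2 fold change was 0.49 for 70 cytosolic ribosomal proteins, 0.54 for 37 proteasome subunits and 0.41 for 72 mitochondrial ribosomal proteins, or 0.52, 0.34 and 0.11 without YFP+ library 21. None of these genes passed the edgeR test over all 8 libraries, and without YFP+ library 21 it called 24 of 71 cytosolic ribosomal protein genes, 4 of 37 proteasome genes and 0 of 72 mitochondrial ribosomal protein genes higher. The part of transcript length or of expression level in the members' values was not tested.

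The sums of marker genes of other cell types also varied between libraries. The summed CPM of 10 macrophage markers was 47.0 to 512 in YFP+ libraries and 9.72 to 19.2 in YFP− libraries, with all 8 tested markers positive. In YFP+ library 21 Lyz2 gave 59.8 of the 60.7 CPM, and Csf1r, Cd68, C1qa and C1qb were at 0. The median log2 ratio of the tested markers to the YFP− mean was -0.49 in that library. It was 1.93, 3.81 and 0.84 in YFP+ libraries 46, 48 and 53. Of the macrophage markers, Lyz2 passed the edgeR test as higher without YFP+ library 21 (log2 fold change 4.28, adjusted p = 0.0483). The 9 B cell markers summed to 649 to 4124 CPM in YFP+ libraries and 1242 to 1729 CPM in YFP− libraries, with 7 of 8 tested markers positive and a median log2 fold change of 2.93. Ighm, the heavy chain of IgM, made up most of the YFP− sums and had the negative value (-0.62). Without it, a choice made after seeing the data, the other 8 summed to 134 to 2001 CPM in YFP+ libraries and 78.7 to 105.4 CPM in YFP− libraries, with no overlap, and Cd79a and Ebf1 passed the edgeR test as higher without YFP+ library 21. The 9 erythroid markers summed to 306 to 5247 CPM in YFP+ libraries and 96.1 to 376 CPM in YFP− libraries. Of these markers, Ms4a1 (B cells) and Alas2 (erythroid cells) were listed at 0 in all 8 libraries. YFP+ library 48 held the highest sum of each of the 3 lists. The part of other cells in the members' values was not tested.

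Other genes of the pathway were taken as lists, and none of their members passed the edgeR test over all 8 libraries. The 44 tested assembly factors, proteins that build the complexes without remaining in them, had a median log2 fold change of 0.0094 over all 8 libraries, with 22 positive and 0 called, and 0.09 without YFP+ library 21, with 30 positive. The 14 enzymes of the tricarboxylic acid cycle, which feeds NADH and succinate into the chain, had a median of 0.24, with 9 positive and 0 called. Without YFP+ library 21 the median was 0.13. Their largest changes over all 8 libraries were Sucla2 (0.86, adjusted p = 0.482) and Idh3a (0.78, adjusted p = 0.416), which stood at 0.10 and 0.31 without that library. The 14 regulators of mitochondrial biogenesis had a median of -0.29 over all 8 libraries, with 3 positive and 0 called, and -0.21 without YFP+ library 21. Among these were Esrra (-1.77, adjusted p = 0.415), a nuclear receptor that activates mitochondrial genes, and Gabpb2 (-0.86, adjusted p = 0.280), a subunit of the ETS factor GABP, which passed the edgeR test as lower without YFP+ library 21 (-1.10, adjusted p = 0.0251), as did Polrmt (-1.57, adjusted p = 0.0359), the mitochondrial RNA polymerase. Over all 8 libraries Polrmt stood at -0.048 (adjusted p = 0.985), with 60.8 CPM in YFP+ library 21 and 5.25 to 8.58 CPM in YFP+ libraries 46, 48 and 53, against 13.87 to 25.996 CPM in YFP− libraries. Cycs, which encodes cytochrome c, the electron carrier between complexes III and IV, had 813, 191, 180 and 179 CPM in YFP+ libraries 21, 46, 48 and 53, against 135, 115, 120 and 147 CPM in the YFP− libraries of the same numbers. Its groups did not overlap. Its log2 fold change was 1.40 (adjusted p = 0.349), or 0.50 (adjusted p = 0.0437) without YFP+ library 21. Ndufab1, the acyl carrier protein that is also a complex I subunit, had a log2 fold change of -0.25 (adjusted p = 0.639). The 13 subunits encoded by mitochondrial DNA were listed at 0 in all 8 libraries, so that the mitochondrial share of the complexes was not analysed here.

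**Figure D3:**
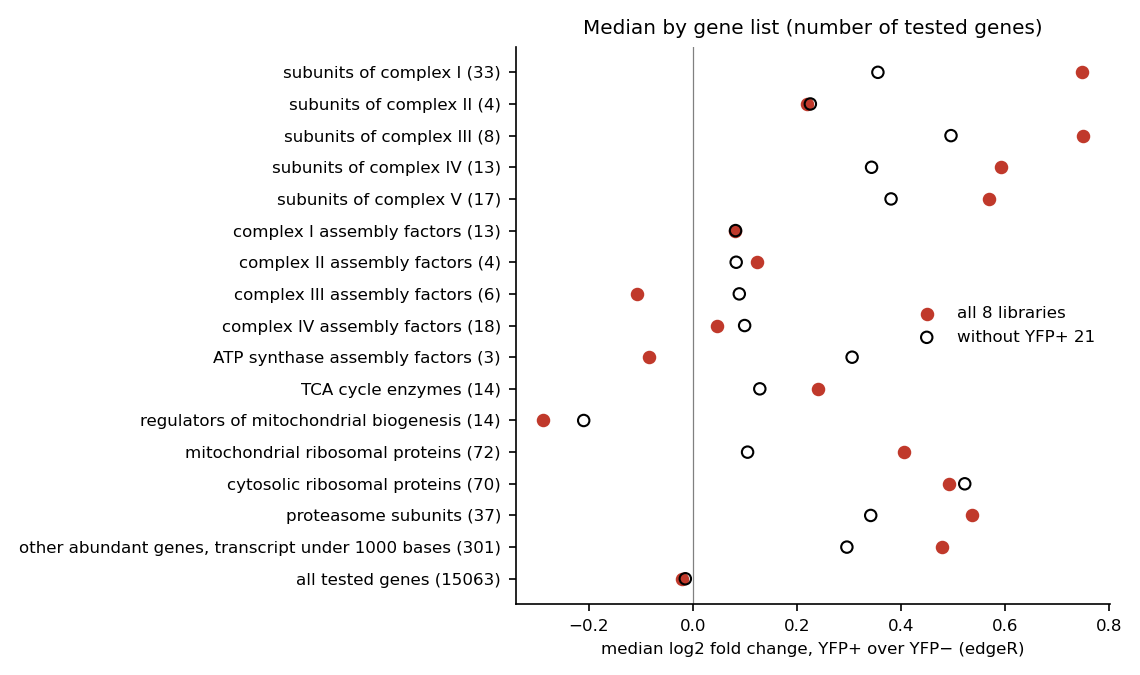
Points give the median log2 fold change (horizontal axis, YFP+ over YFP−, edgeR) of each gene list (rows, with the number of tested genes), filled for all 8 libraries and open without YFP+ library 21. The subunits of complexes I, III, IV and V lie at 0.57 to 0.75 over all 8 libraries, beside the proteasome (0.54), the ribosomal proteins (0.49) and the other abundant short-transcript genes (0.48), whereas complex II lies at 0.22 and all tested genes at -0.02.

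Promoters of respiratory chain genes are known for binding sites of NRF1, ETS factors and YY1, and windows of 250 bases before to 50 bases after the start were searched in the RefSeq sequences (GRCm38.p6), on both strands. Of the 83 members, 67 were matched by gene identifier, with 72 windows. The NRF1 core was in 23.6% of the members' windows, against 4.60% of all 32851 windows of the same length, the ETS core CCGGAAG in 22.2% against 8.86%, and the YY1 core AAGATGGC in 13.9% against 2.75%. At least 1 of the 3 was found in 51.4% of the members' windows and in 14.7% of all windows. Members with at least 1 had a median log2 fold change of 0.73 (36 genes), or 0.37 without YFP+ library 21, and members with none had 0.59 (27 tested genes), or 0.28 without it. A match is a run of letters and not an occupied site. The sequences printed here show where such letters lie. For each complex they give the member with the most matches in the 150 bases before the RefSeq start, ties going to the higher mean CPM, and each stretch ends before the first base that GENCODE places in an exon, with a minimum of 80 bases. No complex II member had a match in such a stretch. Capitals mark the matches on either strand, and each sequence runs 5′ to 3′ on the gene's strand.
Ndufs5, complex I, chr4:123718203-123718336, minus strand: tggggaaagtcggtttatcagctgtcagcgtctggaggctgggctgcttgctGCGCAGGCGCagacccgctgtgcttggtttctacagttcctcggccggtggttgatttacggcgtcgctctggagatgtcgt
Uqcrh, complex III, chr4:116075072-116075220, minus strand: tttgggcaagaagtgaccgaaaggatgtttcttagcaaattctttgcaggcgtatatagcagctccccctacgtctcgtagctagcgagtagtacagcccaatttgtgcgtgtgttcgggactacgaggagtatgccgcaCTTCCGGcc
Cox6a1, complex IV, chr5:115348982-115349108, minus strand: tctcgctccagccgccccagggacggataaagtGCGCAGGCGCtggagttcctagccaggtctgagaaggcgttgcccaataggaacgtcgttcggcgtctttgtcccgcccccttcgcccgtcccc
Atp5h, complex V, chr11:115419963-115420069, minus strand: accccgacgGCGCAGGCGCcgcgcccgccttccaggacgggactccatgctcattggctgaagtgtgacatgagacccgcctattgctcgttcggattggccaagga
The stretches of Ndufs5, Cox6a1 and Atp5h each held 1 NRF1 core, spelled alike in all 3, and that of Uqcrh held 1 ETS core. The log2 fold changes of these genes were 0.53 for Ndufs5, 0.89 for Uqcrh, 0.53 for Cox6a1 and 0.26 for Atp5h.

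Complex I is the largest of the complexes, with a set of core subunits that carry the flavin and the iron-sulfur clusters and many accessory subunits around them. All 33 tested members but Ndufs1 and Ndufs7 had positive log2 fold changes, with a median of 0.75, or 0.36 without YFP+ library 21, and 0 were called at either setting. The 26 accessory subunits had a median of 0.82 and ranged from 0.09 to 1.63, while the 7 core subunits had a median of 0.30 and ranged from -0.27 to 0.55. Without YFP+ library 21 these medians were 0.36 for accessory and 0.11 for core subunits. The difference between the classes was not tested. Their principal transcripts had median lengths of 718 and 1623 bases.

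The highest log2 fold change in complex I belonged to Ndufa12, an accessory subunit next to the electron-entry module (ENSMUSG00000020022, chr10:94198720-94221443, mm10). It had 578, 72.0, 96.4 and 94.2 CPM in YFP+ libraries 21, 46, 48 and 53, against 73.1, 61.4, 68.3 and 68.1 CPM in the YFP− libraries of the same numbers. Library 21 alone was several times above the others, and YFP+ 46 overlapped the YFP− libraries. The log2 fold change was 1.63 ± 0.68 SE (adjusted p = 0.382) with it and 0.36 ± 0.13 (adjusted p = 0.151) without it. Ndufv1, the core subunit that binds NADH and the flavin, went the other way in the same library. It had 1 count in YFP+ library 21, which is 0.0474 CPM, and 132, 118 and 142 CPM in YFP+ libraries 46, 48 and 53, against 88.7, 80.8, 102 and 106 CPM in YFP− libraries 21, 46, 48 and 53. The other 3 YFP+ libraries lay above every YFP− library, and the log2 fold change was 0.06 ± 1.24 SE (adjusted p = 0.989) over all 8 libraries and 0.46 ± 0.13 (adjusted p = 0.0755) without library 21. The other 7 libraries held 4940 to 7659 counts of this gene. Ndufs7, a core iron-sulfur subunit, had the lowest value of the complex, with 70.01, 80.3, 116 and 96.1 CPM in YFP+ libraries and 105, 98.6, 107 and 128 CPM in YFP− libraries (log2 fold change -0.27 ± 0.22 SE, adjusted p = 0.638).

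Complex II, or succinate dehydrogenase, is shared with the tricarboxylic acid cycle and is encoded wholly in the nucleus. Its 4 members had a median log2 fold change of 0.22 over all 8 libraries and 0.23 without YFP+ library 21. Sdha, the flavoprotein that oxidises succinate, had 371, 463, 492 and 514 CPM in YFP+ libraries 21, 46, 48 and 53, against 332, 378, 432 and 452 CPM in the YFP− libraries of the same numbers. The groups overlapped through YFP+ library 21, and the log2 fold change was 0.21 ± 0.17 SE (adjusted p = 0.649). Sdhb, the iron-sulfur subunit, had 904, 240, 286 and 282 CPM in YFP+ libraries, against 215, 200, 206 and 239 CPM in YFP− libraries. Its groups did not overlap, though YFP+ 46 lay just above YFP− 53. The log2 fold change was 0.99 ± 0.43 SE (adjusted p = 0.400), and 0.32 ± 0.11 (adjusted p = 0.122) without library 21. Sdhc and Sdhd are the membrane anchors. Sdhc had 90.1, 89.0, 116 and 85.6 CPM in YFP+ libraries and 92.0, 87.1, 93.0 and 103 CPM in YFP− libraries (log2 fold change 0.02 ± 0.19 SE, adjusted p = 0.971). Sdhd had 121, 91.8, 125 and 88.3 CPM in YFP+ libraries and 88.9, 78.7, 109 and 85.6 CPM in YFP− libraries (log2 fold change 0.23 ± 0.22 SE, adjusted p = 0.683). Both sets of libraries overlapped.

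Complex III passes electrons from reduced coenzyme Q to cytochrome c, and its 8 members gave 3 of the 5 calls made without YFP+ library 21. Uqcrc1 and Uqcrc2 encode the core proteins and Uqcrfs1 the Rieske iron-sulfur protein. Uqcrc1 had 1014, 463, 580 and 600 CPM in YFP+ libraries 21, 46, 48 and 53, against 365, 314, 383 and 405 CPM in the YFP− libraries of the same numbers. All 4 YFP+ libraries were above all 4 YFP− libraries. The log2 fold change was 0.86 ± 0.25 SE (adjusted p = 0.232) over all 8 libraries, and it rose in YFP+ cells by 0.57 ± 0.13 (adjusted p = 0.0447) without library 21. Uqcrc2 had 245, 213, 236 and 290 CPM in YFP+ libraries, against 166, 157, 162 and 180 CPM in YFP− libraries. Here library 21 lay among the other YFP+ libraries, the groups did not overlap, and the log2 fold change was 0.57 ± 0.16 SE (adjusted p = 0.217) with it and 0.56 ± 0.12 (adjusted p = 0.0441) without it. Uqcrfs1 had 108, 153, 193 and 164 CPM in YFP+ libraries, against 122, 96.8, 103 and 111 CPM in YFP− libraries. Only YFP+ library 21 fell within the YFP− range. The log2 fold change was 0.51 ± 0.22 SE (adjusted p = 0.394), and 0.65 ± 0.12 (adjusted p = 0.0329) without that library.

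The accessory subunits of complex III gave both ends of its range. Uqcrq had 359, 90.4, 97.9 and 114 CPM in YFP+ libraries and 72.9, 58.2, 66.7 and 83.6 CPM in YFP− libraries (log2 fold change 1.23 ± 0.47 SE, adjusted p = 0.349). Uqcrb had 107, 88.8, 88.7 and 88.1 CPM in YFP+ libraries and 76.6, 64.5, 75.5 and 85.1 CPM in YFP− libraries (log2 fold change 0.30 ± 0.20 SE, adjusted p = 0.541). Neither gene's groups overlapped, and in Uqcrb the margin between YFP+ 53 and YFP− 53 was small.

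Complex IV, cytochrome c oxidase, has several subunits with tissue-specific isoforms, and 13 of its 20 members could be tested. All 13 had positive log2 fold changes, with a median of 0.59, or 0.34 without YFP+ library 21. Cox7a2l, a relative of subunit 7a that joins complexes III and IV into supercomplexes, had 893, 690, 572 and 640 CPM in YFP+ libraries 21, 46, 48 and 53, against 378, 382, 423 and 464 CPM in the YFP− libraries of the same numbers. The groups did not overlap. Its log2 fold change was 0.76 ± 0.18 SE (adjusted p = 0.135) over all 8 libraries, with an adjusted p of 0.0141 in DESeq2, and 0.62 ± 0.11 (adjusted p = 0.0269) in edgeR without library 21. The subunit it resembles, Cox7a2, had 184, 75.6, 76.0 and 74.5 CPM in YFP+ libraries and 71.6, 66.8, 74.96 and 76.0 CPM in YFP− libraries. Outside library 21 its levels were nearly the same in both fractions (log2 fold change 0.50 ± 0.34 SE, adjusted p = 0.559, and 0.05 ± 0.10 without library 21). Ndufa4, first described in complex I, had 272, 105, 134 and 102 CPM in YFP+ libraries and 85.3, 77.7, 104 and 120 CPM in YFP− libraries (log2 fold change 0.66 ± 0.36 SE, adjusted p = 0.471). Cox5b, the zinc-binding subunit with the lowest value of the complex, had 206, 93.5, 105 and 102 CPM in YFP+ libraries and 94.3, 84.4, 87.1 and 108 CPM in YFP− libraries (log2 fold change 0.43 ± 0.29 SE, adjusted p = 0.555). In both genes the groups overlapped. The highest value, 1.76 ± 1.12 SE (adjusted p = 0.532), belonged to Cox4i2, an isoform of subunit 4 known from lung and from low oxygen, and rested on few counts. It had 1, 113, 91 and 39 counts in YFP+ libraries and 8, 83, 13 and 9 counts in YFP− libraries.

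Members of complex IV made up most of those that could not be tested. Cox4i1, Cox6a2, Cox8b, Cox8c and Ndufa4l2, with Ndufa13 of complex I, were listed at 0 in all 8 libraries. Cox6a2 and Cox8b are muscle and heart isoforms and Cox8c is known from testis, whereas Cox4i1 and Ndufa13 encode subunits that nearly every cell uses. In the GENCODE annotation the whole span of Cox4i1 (chr8:120668222-120674207, mm10) is covered by the other gene models Emc8 and Gm20388, and that of Ndufa13 (chr8:69894180-69902558) by Tssk6 and Yjefn3. The sources used here do not say whether reads falling in more than 1 gene were set aside in counting, and a 0 is reported only as listed. Cox7a1, with 0 to 15 counts in YFP+ libraries and 1 to 31 counts in YFP− libraries, and Cox7b2, with 3 to 13 counts in YFP+ libraries and 4 to 21 counts in YFP− libraries, were too low for the test over all 8 libraries. Tested members with partly covered spans included Ndufb8, Ndufb9, Ndufs1, Cox6c and Atp5o, with 37.1% to 56.8% of the span free of other gene models. Ndufb2 had 61.4% free, and some others had smaller parts covered. The counts of such members are less certain. Processed pseudogenes with matching names numbered 10, of which 7 held counts, and all their counts together equalled 0.686% of the summed counts of the members.

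Complex V couples a rotating ring in the membrane to the catalytic F1 head through a central and a peripheral stalk. Of its 17 members, 16 had positive log2 fold changes, with a median of 0.57, or 0.38 without YFP+ library 21. Atp5f1, a subunit of the peripheral stalk, had 458, 278, 323 and 267 CPM in YFP+ libraries 21, 46, 48 and 53, against 195, 189, 202 and 224 CPM in the YFP− libraries of the same numbers. The groups did not overlap, and the log2 fold change was 0.71 ± 0.21 SE (adjusted p = 0.230), or 0.51 ± 0.11 (adjusted p = 0.0419) without library 21. Atp5c1, the central stalk subunit gamma of F1, had 527, 419, 420 and 560 CPM in YFP+ libraries, against 301, 277, 323 and 362 CPM in YFP− libraries, again without overlap. Its log2 fold change was 0.61 ± 0.17 SE (adjusted p = 0.207 in edgeR, 0.0375 in DESeq2). Atp5b, the catalytic beta subunit and the member of complex V with the highest mean CPM, had 387, 780, 888 and 1053 CPM in YFP+ libraries, against 549, 557, 640 and 734 CPM in YFP− libraries. Library 21 was the lowest of all 8 and the other 3 YFP+ libraries were the highest, so that the log2 fold change was 0.33 ± 0.29 SE (adjusted p = 0.673) with it and 0.54 ± 0.14 (adjusted p = 0.0709) without it. The 5 F1 subunits as a class shifted in that direction, with a median of 0.33 over all 8 libraries and 0.54 without library 21, whereas the 4 small membrane subunits shifted from 0.86 over all 8 libraries to 0.27 without it. Atp5k, one of these, had 70.8, 9.55, 14.0 and 17.5 CPM in YFP+ libraries and 11.8, 9.06, 11.8 and 15.03 CPM in YFP− libraries (log2 fold change 1.23 ± 0.67 SE, adjusted p = 0.477). Only library 21 was far from the rest. Atp5s, a coupling factor and not a structural subunit, was the member with the lowest value, at 0.0474, 4.39, 7.56 and 1.81 CPM in YFP+ libraries and 9.49, 8.67, 6.70 and 5.11 CPM in YFP− libraries (log2 fold change -1.12 ± 1.06 SE, adjusted p = 0.689). YFP+ library 21 held 1 count of it.

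Atp5g1, Atp5g2 and Atp5g3 encode different precursors of 1 mature protein, subunit c of the membrane ring. Atp5g1 had 256, 153, 188 and 180 CPM in YFP+ libraries, against 124, 109, 142 and 155 CPM in YFP− libraries. Atp5g3 had 166, 144, 165 and 232 CPM in YFP+ libraries, against 122, 100, 126 and 148 CPM in YFP− libraries. In both, a single pair of libraries kept the groups from separating, and the log2 fold changes were 0.55 ± 0.22 SE and 0.51 ± 0.22 (two-sided exact permutation p = 0.0571 for each, where 0.0286 is the smallest that 4 against 4 libraries allow). Atp5g2 had 99.6, 102, 123 and 123 CPM in YFP+ libraries, against 94.4, 86.5, 112 and 119 CPM in YFP− libraries, with a log2 fold change of 0.12 ± 0.20 SE (exact permutation p = 0.429). The difference between the 3 genes was not tested.

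**Figure D4:**
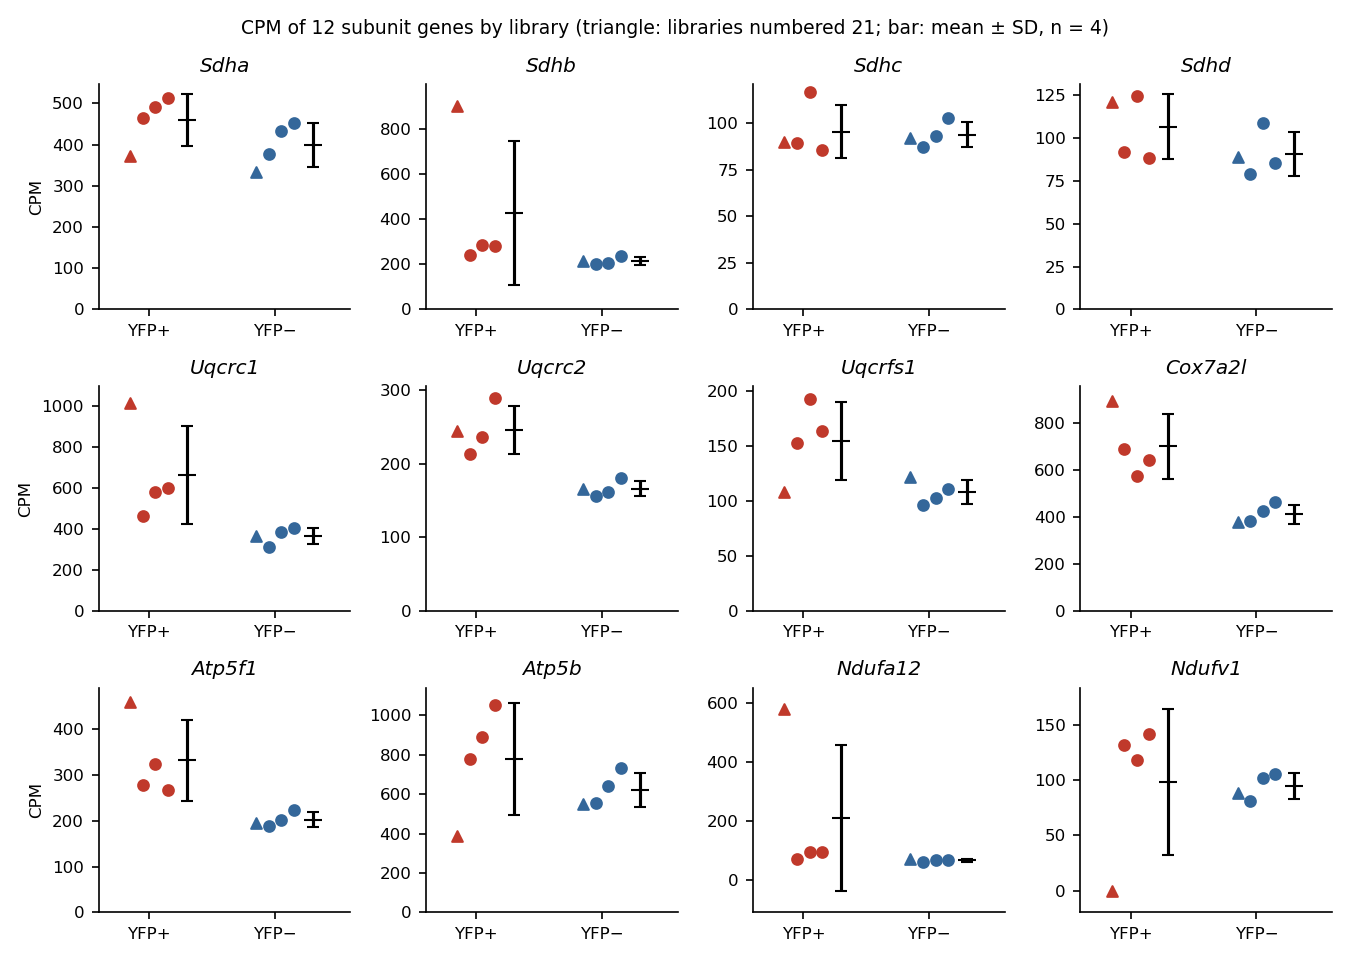
Points give the CPM (vertical axis) of 12 subunit genes in the 4 YFP+ and 4 YFP− libraries, with triangles for the libraries numbered 21 and bars for the mean ± SD of each fraction (n = 4). In Sdhb (904 CPM) and Ndufa12 (578 CPM) the YFP+ triangle is far above all other points, in Ndufv1 (0.0474 CPM) and Atp5b (387 CPM) it is the lowest, and in Uqcrc2 and Cox7a2l all YFP+ points lie above all YFP− points.

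Among themselves, the members kept nearly the same order of levels in all libraries but 1. Ranked by CPM per kilobase of the principal transcript, the 75 tested members correlated with the mean of the YFP− libraries (the library itself left out) at a Spearman coefficient of 0.682 in YFP+ library 21, at 0.958 to 0.970 in the other YFP+ libraries and at 0.985 to 0.990 in the YFP− libraries. This is a correlation across 75 genes that share a library and is given as a description. The highest levels per kilobase belonged to Cox7a2l, with 649 ± 129 CPM per kb in YFP+ libraries and 383 ± 37.5 CPM per kb in YFP− libraries (SD, n = 4 each), and to Uqcrh, with 673 ± 330 CPM per kb in YFP+ libraries and 363 ± 55.2 CPM per kb in YFP− libraries. These neighbours in the order did not differ beyond their spread. The lowest of the widely expressed subunits, Ndufb2, had 5.48 CPM per kb in YFP+ libraries and 2.83 CPM per kb in YFP− libraries, on a principal transcript of 4371 bases, and such levels depend on the transcript chosen.

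**Figure D5:**
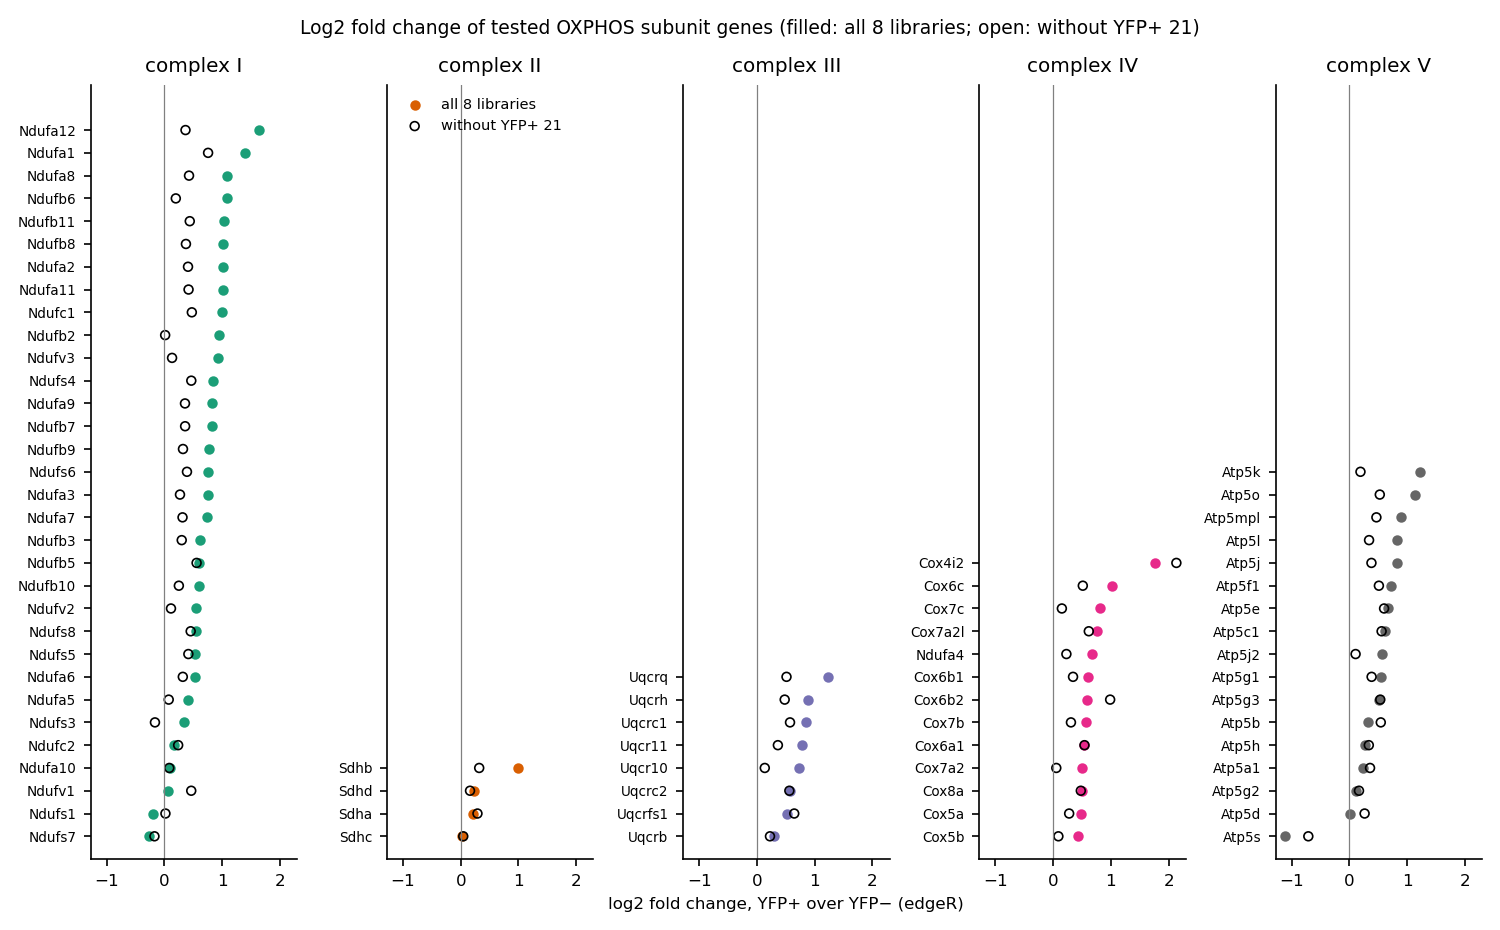
Each row is a tested subunit gene (1 of the 75 is not shown), grouped by complex and ordered by its log2 fold change over all 8 libraries (horizontal axis, YFP+ over YFP−, edgeR, filled points), with the value without YFP+ library 21 as an open point. Most open points lie nearer to 0 than the filled ones, as for Ndufa12 (0.36 against 1.63) and Sdhb (0.32 against 0.99), while those of Ndufv1 (0.46 against 0.06) and Atp5b (0.54 against 0.33) lie further to the right.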

How the data were processed

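Raw gene counts, whole numbers per Ensembl gene with 1 column per library, were deposited by the authors. STAR, Trim Galore and mm10 are the tools and build that the submitters' notes list. The sources used here give neither versions nor the counting tool or its strand setting, and antisense or overlapping genes cannot be told apart by strand. Libraries were made from 100 ng of total RNA with a low-input kit. The study's text names no model for these data. The Ripk1 wt/wt Foxp3 Cre/wt controls were not analysed here.

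From the counts, genes were kept by filterByExpr (minimum count 10, minimum total 15), scaled by TMM and tested over all 8 libraries with edgeR's quasi-likelihood test (edgeR 4.0.16, limma 3.58.1, R 4.3.3), YFP+ over YFP−, with condition as the only term and Benjamini-Hochberg adjustment at 0.05 over all genes tested. The SE of a log2 fold change is its size divided by the square root of the test's F. CPM are counts scaled to TMM library sizes, and log values add a pseudocount of 1. Per-library ratios are on that log2(CPM + 1) scale, which understates the change of low genes. Groups were called non-overlapping when the lowest library of one exceeded the highest of the other. The procedure was also run on simulated counts drawn from each gene's mean and dispersion. No simulated library was set apart as YFP+ library 21 was, and the recovery rates are not reported here. Alternatives were DESeq2 1.42.0, other scalings and filters, robust dispersion, a replicate block and leaving out libraries.

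Members and lists were chosen with earlier results of these data known. Named members were those past the threshold, the highest, lowest and most abundant of each complex, the 5 non-overlapping members with the smallest p, those listed at 0, all of complex II, the Atp5g genes, Ndufa4, Cox7a2 and Cox7a2l, of which 1 is not reported here. Uqcrfs1 (a call made without YFP+ library 21), Ndufv1, Ndufb5 and the genes of the promoter windows were chosen after values were seen, as were the ribosomal, proteasome and transcript-length comparisons. Gene spans and lengths are from GENCODE M21, which all 83 members matched, using the APPRIS principal transcript.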

Additional observations from a re-analysis of the deposited data

Results flagged for a closer look

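Within a fraction, the gap between the highest or lowest library and its nearest neighbour was divided by the range of the 4 libraries, and a quotient above Dixon's 95% critical value for 4 values marked a library far from the others. Chance gives about 1 in 20 for independent values not chosen by their size, and that rate does not hold here. Several genes were chosen for their log2 fold change, and Ndufv1 for its value in YFP+ library 21. The sums reuse the same libraries. Of 70 groups of values, 13 passed, 11 of them through YFP+ library 21. That library was the highest of the YFP+ libraries in CPM for Cox7a2 (0.986), Uqcrb (0.959), Ndufa12 (0.952), Sdhb (0.931), Uqcrq (0.912), Cox5b (0.899) and Atp5k (0.870), and the lowest for Ndufv1 (0.833). It was also the highest in the summed CPM of complex I (0.931) and complex IV (0.861), and in the SD of the members' log2 ratios (0.878). YFP+ library 48 was the highest of the YFP+ libraries for Sdhc (0.855), and YFP− library 48 had the lowest total count of the YFP− libraries (0.855).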

How the results depend on the processing

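The median log2 fold change of the members stayed positive under all 20 alternatives, between 0.31 and 0.76, and between 0.36 and 0.76 when libraries were left out. Scaling by total counts alone gave the lowest, 0.31, and moved the median of all genes to -0.28, and the log2 ratio of summed CPM for complex V to 0.16. Relative to all genes the members then stood at 0.59, against 0.63 with TMM. The number of members called higher was 0 except with DESeq2 (4) and without YFP+ library 21 (5), so it ran from 0 to 5 when libraries were left out, and 0 were called lower under any alternative. Over all genes, 131 were called, and 197 with total counts alone, 10 with no filter, 9 with a stricter filter, 1095 with DESeq2, and 0 to 1052 when libraries were left out, the highest without YFP+ library 21. The filters changed the set of genes tested and the left-out libraries the number of samples, whereas the fits with total counts alone and with DESeq2 used the same libraries and genes; the cause of the differences was not tested. Signs turned for members near 0. With total counts alone the summed levels of complexes I, II and V overlapped between fractions, Atp5g2 stood at -0.16, Ndufv1 at -0.13, Sdha at -0.058, Sdhc at -0.26 and Sdhd at -0.071, and with no filter Sdhc at -0.061. Leaving out libraries gave -0.18 to 0.46 for Ndufv1 and -0.10 to 0.11 for Sdhc.

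Library numbers were not treated as pairs in the fit over all 8 libraries. The deviations of same-numbered libraries correlated weakly, at 0.0489, 0.0682, 0.140 and 0.0950. Still, each YFP− library correlated best with the YFP+ library of its own number, as did YFP+ libraries 46, 48 and 53 with theirs. YFP+ library 21 correlated slightly better with YFP− library 46 (0.0677). Whether same-numbered libraries come from the same mouse is not stated. With the number as a replicate block, 0 members and 0 of all genes were called in edgeR (13 and 1440 at an unadjusted p under 0.05), the median of all genes was -0.32, the median of the members was 0.56, and Ndufv1 stood at -0.55. Cox4i2, Cox6b2 and Atp5s rest on few counts, and the part of sequencing depth in the values of other members was not tested.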
